A study of Homo sapiens with 12 samples.

Results

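Genes of the G2 phase and mitosis were described as a group of 40, chosen by name from the known machinery of cell division. All 40 were represented on the arrays and passed the detection filter, out of 11075 genes measured, and 39 of them were detected on all 12 arrays. BUB1B, detected on 11 arrays, was the exception. The names and the filter did not use the comparisons reported here, but the group was drawn up with earlier results of these data known.

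Expression was measured on 12 Illumina BeadChip arrays, 1 per RNA sample, in 4 groups of 3. HEK001 is a human keratinocyte line and HEK293 a human embryonic kidney line, and as background both carry viral oncogene sequences, of papillomavirus in HEK001 and of adenovirus in HEK293. Cells of either line received a lentiviral hairpin against NCSTN (labelled siNCSTN, A08) or the control hairpin against luciferase (siLuciferase, pLKO). All groups had therefore been infected with virus for 24 h in polybrene at 10 µg/mL and selected in puromycin for about 2 weeks, at 2 µg/mL in HEK293 and at a labelled 0.5, with an incomplete unit, in HEK001. The knockdown rests on 1 hairpin, whose 21-base target as labelled is gctctactgaatactctacat, shown because every comparison below depends on it. Every sample, of either line, has HEK001 as its labelled source, so the line was taken from the titles. The labels do not say that replicates were separate cultures, and p-values therefore measure the spread between these arrays.

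As background, entry into mitosis is driven by CDK1 bound to cyclins, held in check by inhibitory phosphates until CDC25 phosphatases remove them. Kinases of the Aurora, Polo and NEK families, kinesin motors and microtubule-binding proteins then build the spindle, the spindle checkpoint holds the cell until kinetochores are attached, and the anaphase-promoting complex (APC/C) ends mitosis by marking securin and cyclins for destruction. The transcripts of these genes rise together late in each cycle and are low in cells that have stopped dividing. In growing keratinocytes they mark the proliferating basal state. Nicastrin, the NCSTN product, is a subunit of gamma-secretase, the membrane protease that releases the Notch intracellular domain.

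Levels are given as background-corrected, quantile-normalized intensities on the log2 scale, and differences as the level with the hairpin against NCSTN less that with the luciferase hairpin, beside the fit's standard error (SE). Calls were made where limma's adjusted p, over all 11075 genes, fell below 0.05. Each array detected 14818 to 16333 probes, and arrays of a group correlated across genes at 0.9895 to 0.9943. NCSTN was between 9.77 and 9.95 on the HEK001 control arrays and between 6.55 and 6.99 with the hairpin, and between 9.66 and 9.82 against 7.73 and 7.89 in HEK293, with no overlap in either line. Of 10 keratinocyte markers, 5 were measured and detected on all HEK001 arrays, and in HEK293 1 of the 5 was detected on all arrays while KRT5, KRT14, KRT15 and DSG3 were detected on none. Of 8 kidney and neuronal genes listed for HEK293, 6 were measured and detected on all HEK293 arrays, and in HEK001 control cells 2 of the 6 were detected on all arrays while LIN28B, TUBB2B and ZCCHC12 were detected on none. Summed as linear intensities, the keratinocyte markers were higher with the hairpin in HEK001 (29280 to 30770, against 22860 to 24740 on control arrays) and in HEK293 (285.8 to 330.3, against 215.1 to 236.8). The kidney and neuronal genes were lower with it in HEK001 (3259 to 3545, against 4229 to 4512) and higher in HEK293 (19840 to 21000, against 12650 to 13310). Among markers of other cell types, 3 of 6 leukocyte genes were measured, with LYZ and CD74 detected on no HEK293 array. Their summed linear intensity was lower with the hairpin in HEK001 (241.6 to 256, against 282.3 to 306.7 on control arrays) and in HEK293 (142.2 to 151.9, against 177.2 to 199.2). The single measured fibroblast gene of 8 overlapped between the HEK001 groups (36.75 to 43.24 control, 40.35 to 44.74 hairpin) and was lower with the hairpin in HEK293 (27.19 to 39.21, against 52.45 to 71.62). The 2 measured melanocyte genes of 6 overlapped between the groups of both lines. Their sums were 57.27 to 61.5 with the hairpin against 57.83 to 83.81 on control arrays in HEK001, where PMEL was detected on no array. In HEK293 they were 68.6 to 101.5 against 82.94 to 124.4. The part of these genes in the results was not tested. The number of arrays limits the precision of every value.

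In HEK001 the mitotic genes were lower with the NCSTN hairpin nearly throughout, and in HEK293 they were not lower as a group. Of the 40, 32 fell in HEK001, none rose and 8 were not called, whereas 7.89% of all genes measured were called lower and 8.35% higher (16.2% in either direction). The falls that were called ran from 0.43 for NUSAP1, a microtubule-bundling protein gene, to 1.00 for TOP2A, the DNA topoisomerase that untangles sister chromosomes. The median over the 40 was −0.61, beside −0.0064 over all genes. In HEK293, 4 genes rose, 3 fell and 33 were not called, against 12.4% of all genes higher and 13.5% lower (25.9% in either direction), and the median was 0.02, beside 0.0065 over all genes. That median turned to −0.039 without HEK293 control replicate 2. The share called in HEK001 (80% lower) is far above that background, and the shares in HEK293 (10% higher and 7.5% lower) are below it. In bulk RNA, fewer cells in division and less RNA per dividing cell cannot be told apart.

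**Figure D1:**
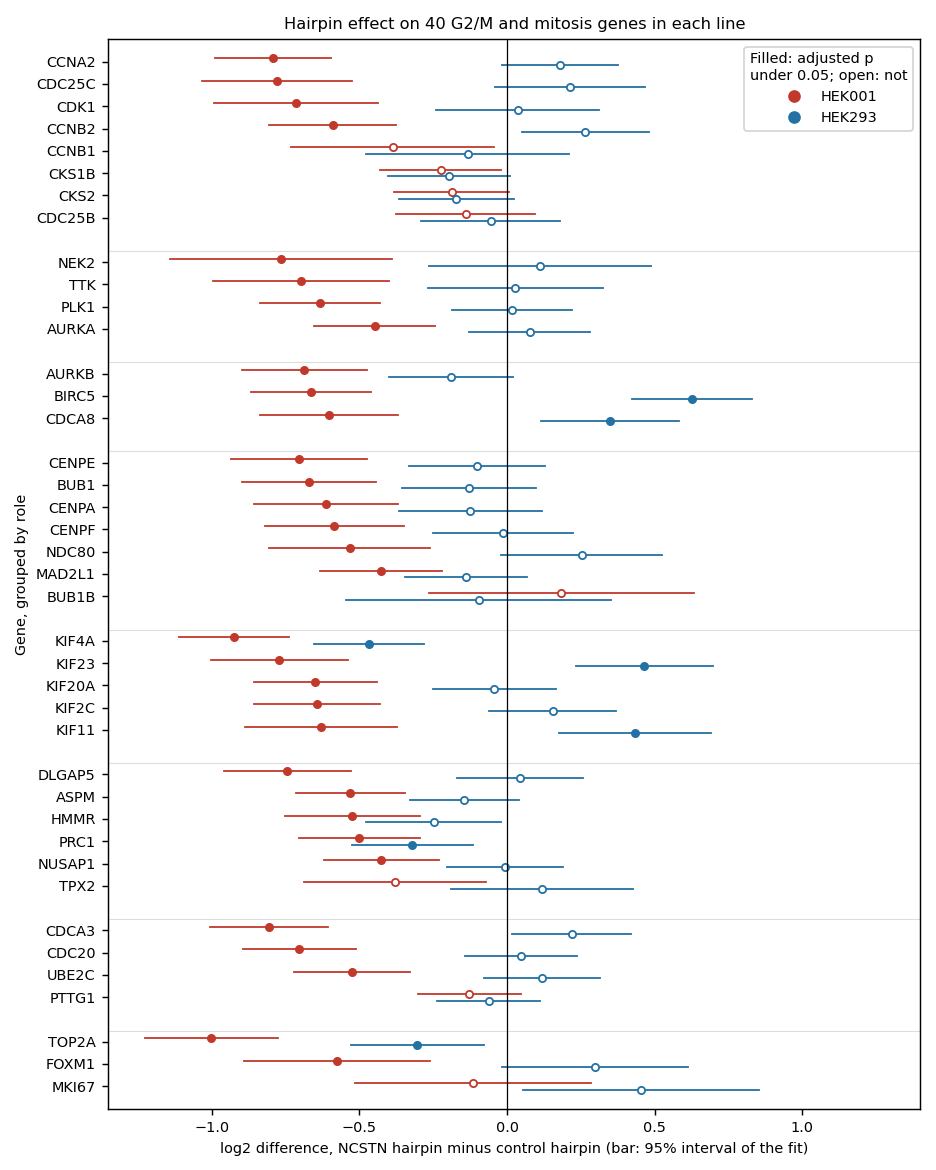
Log2 difference between the NCSTN hairpin and the control hairpin (horizontal axis) for each of the 40 genes (vertical axis, grouped by role), in HEK001 (red) and HEK293 (blue). Points are fitted differences from 3 arrays against 3, bars are 95% intervals of the fit, and filled points have an adjusted p under 0.05. The HEK001 points lie to the left of 0 for 39 of 40 genes, and the HEK293 points lie on both sides.

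The 2 hairpin comparisons share no arrays, and the difference between the lines was tested as an interaction. It was called for 29 of the 40 genes, each time with the HEK293 effect above the HEK001 effect, where 11.7% of all genes were called in that direction. None was called the other way, and the median interaction was 0.60, beside 0.017 over all genes. NCSTN itself was left at 11.8% of its control level in HEK001 and 25.5% in HEK293. Its interaction of 1.12 was called in the same direction (adjusted p = 0.00047). The lines thus also differed in depth of knockdown, and in the labelled puromycin dose. The part of these in the interaction was not tested. The 29 comprise 23 genes that fell in HEK001 and were not called in HEK293, 4 that fell in HEK001 and rose in HEK293 (BIRC5, CDCA8, KIF11 and KIF23), and 2 that fell in both but further in HEK001 (KIF4A and TOP2A). The interaction calls of ASPM, CENPA and NUSAP1 were close to the threshold. They were lost when 1 of 8, 9 and 7 of the 12 arrays, respectively, was left out, with log2 values that stayed between 0.34 and 0.52.

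The shift was present on each knockdown array of HEK001 rather than on 1 of them. Taking each gene's distance from its mean over the 3 control arrays of the line, the median over the 40 genes was −0.65, −0.55 and −0.61 on the 3 HEK001 hairpin arrays. On the HEK001 control arrays it was 0.04, −0.02 and −0.04. Of the 40 genes, 40, 39 and 37 lay below their control mean on hairpin replicates 1, 2 and 3. The exceptions were BUB1B on replicates 2 and 3, and CDC25B and MKI67 on replicate 3. On the HEK293 hairpin arrays the medians were 0.0016, 0.03 and 0.02, with 20, 18 and 18 genes below the control mean. For 36 of the 40 genes all 3 HEK001 hairpin arrays were below all 3 control arrays, which held for 17.5% of all genes. In HEK293 the arrays separated downward for 9 genes and upward for 10, where 20.2% and 20.1% of all genes did so.

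**Figure D2:**
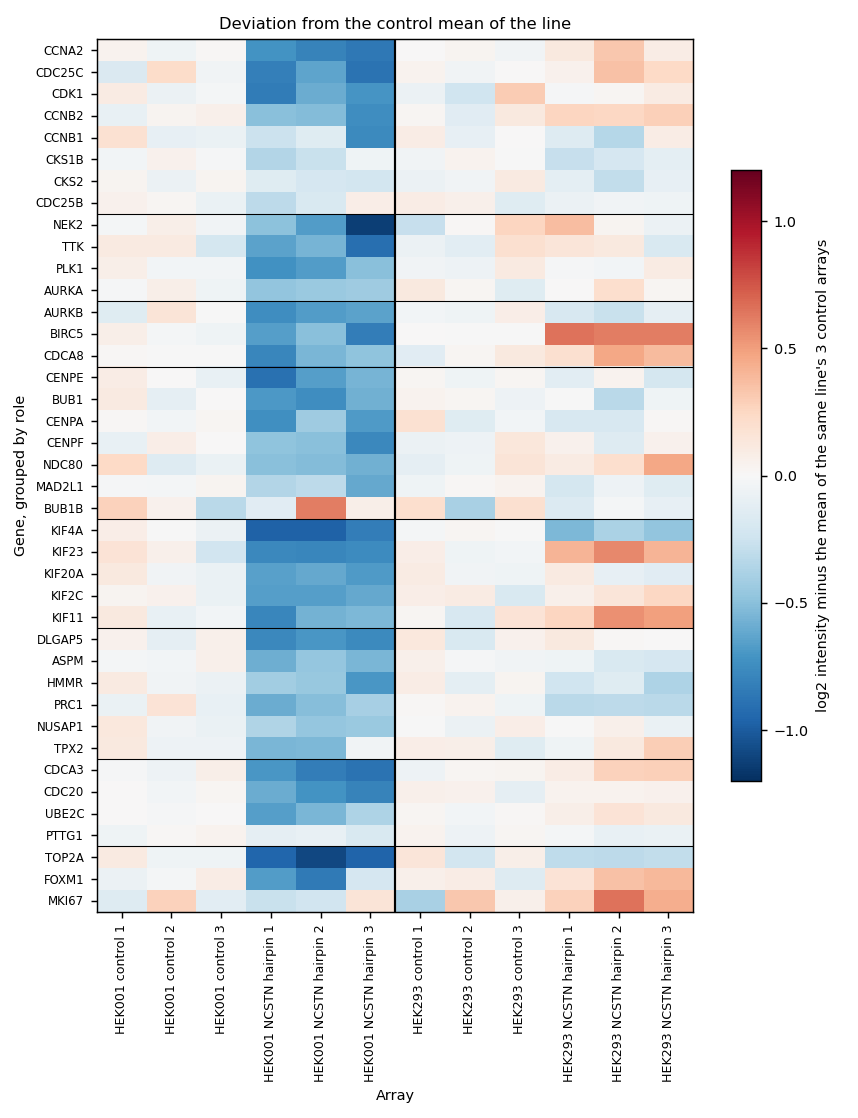
Log2 intensity of each gene (rows, grouped by role) on each of the 12 arrays (columns), minus the mean of the 3 control arrays of the same line. Blue is lower and red is higher than that mean. The 3 HEK001 hairpin columns are blue for nearly every gene, while the HEK293 hairpin columns hold red rows such as BIRC5, KIF23 and KIF11 and blue rows such as KIF4A and TOP2A.

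Genes that move together through the cycle often share promoter elements, and as background many mitotic promoters carry a cell cycle genes homology region (CHR), bound by the MuvB core of the DREAM and MYB-MuvB complexes, downstream of CCAAT boxes bound by NF-Y. RefSeq promoters of GRCh38.p14 were available for 34 of the 40 genes, in 43 windows since some genes have several starts. No entry matched AURKA, BIRC5, FOXM1, TPX2, TTK and UBE2C. In the 250 bases before the start, read on both strands, the CHR letters TTTGAA or TTCGAA were present in 21 of the 43 windows (48.8%), against 5034 of all 35116 windows (14.3%). The letters CCAAT were present in 35 of the 43 (81.4%), against 32% of all windows, and both motifs in 46.5%, against 5.05%. Counted by gene, against the 8975 measured genes with a promoter, CHR letters were present in 20 of the 34 (58.8% against 13.9%), CCAAT in 88.2% against 42.6%, and both in 55.9% against 5.59%. The E2F core TTGGCGC was present in 6.98% of the 43 windows against 2.56% of all windows, and by gene in 5.88% against 5.33%. The GGCGG letters of the CDE element were present in 93% against 56% of windows, and by gene in 94.1% against 88.7%. For these last motifs the contrast thus depends on whether all windows or the measured genes are the background. These are matches of letters and not sites of binding.

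The promoters below are shown for 5 genes that fell in HEK001 and for 3 that were not called there (CKS1B, CKS2 and MKI67). The 5 are TOP2A and KIF4A, the 2 with the largest falls, and CCNB2, PLK1 and CDC20 from 3 other roles. All were chosen after the values were seen, and all hold both motifs, which 19 of the 34 genes do. In the same 3 roles CCNA2, NEK2 and CDCA3 fell further than CCNB2, PLK1 and CDC20. These have no CHR match and are not shown. Each promoter shown runs 5′ to 3′ on the strand of the gene and ends at the base before its start. Capitals mark CHR letters (TTTGAA, read as TTCAAA on the other strand) and CCAAT letters (ATTGG on the other strand). TOP2A is given over 250 bases (chr17:40417897-40418146, minus strand) and the others over 150: KIF4A (chrX:70289954-70290103, plus strand), CCNB2 (chr15:59104996-59105145, plus strand), PLK1 (chr16:23678739-23678888, plus strand), CDC20 (chr1:43358831-43358980, plus strand), CKS1B (chr1:154974531-154974680, plus strand), CKS2 (chr9:89311045-89311194, plus strand) and MKI67 (chr10:128126424-128126573, minus strand), all in GRCh38.p14.
TOP2A: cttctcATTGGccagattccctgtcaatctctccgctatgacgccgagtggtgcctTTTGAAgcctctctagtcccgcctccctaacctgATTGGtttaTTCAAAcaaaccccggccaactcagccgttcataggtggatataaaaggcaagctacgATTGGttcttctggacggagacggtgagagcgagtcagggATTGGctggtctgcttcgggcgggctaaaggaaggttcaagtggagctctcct
KIF4A: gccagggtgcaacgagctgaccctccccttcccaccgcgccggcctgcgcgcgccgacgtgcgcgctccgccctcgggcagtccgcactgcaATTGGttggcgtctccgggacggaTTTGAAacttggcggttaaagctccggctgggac
CCNB2: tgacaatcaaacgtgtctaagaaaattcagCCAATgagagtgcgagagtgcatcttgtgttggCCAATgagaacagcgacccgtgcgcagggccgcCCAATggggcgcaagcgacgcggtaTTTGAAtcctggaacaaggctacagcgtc
PLK1: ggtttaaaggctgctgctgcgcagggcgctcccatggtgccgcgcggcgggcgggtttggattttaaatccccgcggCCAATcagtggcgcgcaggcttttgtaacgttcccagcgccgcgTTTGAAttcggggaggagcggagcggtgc
CDC20: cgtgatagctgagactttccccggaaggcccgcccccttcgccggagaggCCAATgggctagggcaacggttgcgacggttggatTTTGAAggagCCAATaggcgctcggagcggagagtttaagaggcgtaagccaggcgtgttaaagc
CKS1B: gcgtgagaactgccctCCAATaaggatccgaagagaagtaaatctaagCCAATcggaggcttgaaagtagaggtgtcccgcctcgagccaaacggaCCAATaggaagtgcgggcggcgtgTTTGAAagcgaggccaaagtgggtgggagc
CKS2: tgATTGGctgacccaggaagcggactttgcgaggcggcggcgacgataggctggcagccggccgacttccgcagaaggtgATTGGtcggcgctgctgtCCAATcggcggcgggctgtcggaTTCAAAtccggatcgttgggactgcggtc
MKI67: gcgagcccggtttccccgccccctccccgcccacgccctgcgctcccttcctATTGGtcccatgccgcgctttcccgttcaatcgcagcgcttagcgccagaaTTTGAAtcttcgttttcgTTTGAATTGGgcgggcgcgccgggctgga

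In KIF4A, CCNB2 and PLK1 a single CHR match lies at −34, −29 and −29 from the start, with CCAAT letters upstream of it. CKS1B has the same layout, with a CHR match at −30, and like these it has the match on the strand of the gene. In CKS2 the CHR match at −29 lies on the opposite strand, again with CCAAT letters upstream. Neither CKS1B nor CKS2 was called in HEK001. In MKI67 the second CHR match and a CCAAT match overlap. Of the 20 genes with a CHR match in any window, 15 fell in HEK001 and the median difference was −0.61, and of the 14 without one, 12 fell and the median was −0.65. In HEK293 the medians of the same genes were −0.02 and −0.03.

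**Figure D3:**
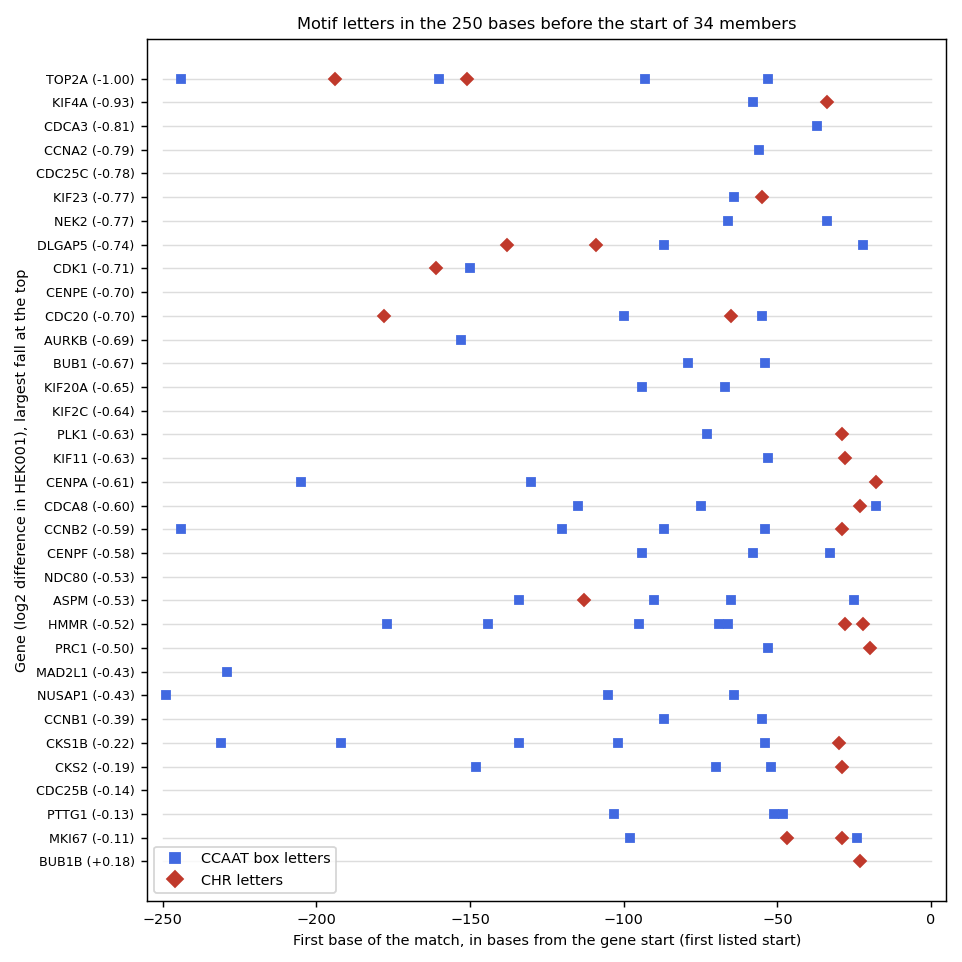
Positions of CHR letters (red diamonds) and CCAAT letters (blue squares) in the 250 bases before the start, for 34 genes ordered from the largest fall in HEK001 at the top. The horizontal axis is the distance of the first base of the match from the first listed start. CHR matches occur from the top of the order to the bottom, and the lines of CDC25B, CDC25C, CENPE, KIF2C and NDC80 hold neither motif in the window of the first listed start.

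Among the cyclins, CDK1 and its activators, 4 of 8 fell in HEK001 and none was called in HEK293. CCNA2, the cyclin that acts from S phase into mitosis, read 9.83, 9.73 and 9.80 on the HEK001 control arrays and 9.07, 8.99 and 8.93 with the NCSTN hairpin. In HEK293 it read 9.72, 9.75 and 9.67 (control) against 9.83, 10.04 and 9.81 (hairpin). The HEK001 groups lie well apart, and in HEK293 the hairpin arrays lie just above the controls. The fall in HEK001 was 0.79 (SE 0.0903, adjusted p = 0.000115), a level 57.7% of that in control cells, and the HEK293 difference of 0.18 was not called (adjusted p = 0.171).

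CDC25C, a phosphatase that activates CDK1, went from 6.90, 7.29 and 7.02 to 6.25, 6.43 and 6.19 in HEK001 and from 8.00, 7.91 and 7.96 to 8.01, 8.31 and 8.19 in HEK293. The hairpin arrays are below every control array in HEK001 and above every one in HEK293. Its fall in HEK001 was 0.78 (SE 0.118, adjusted p = 0.000866). In HEK293 another CDC25C probe, detected on all 12 arrays, differed by −0.24 and was not called. CCNB2, a B-type cyclin of CDK1, read 10.63, 10.75 and 10.79 (control) against 10.22, 10.20 and 9.98 (hairpin) in HEK001, and 10.92, 10.76 and 11.02 (control) against 11.16, 11.15 and 11.19 (hairpin) in HEK293. The same pattern of separation holds as for CDC25C, with a fall of 0.59 in HEK001 (adjusted p = 0.00168) and an uncalled difference of 0.27 in HEK293 (adjusted p = 0.0666). That difference was called higher under 4 other settings (median scaling, detection on all 12 arrays, an offset of 50, or trended and robust moderation, 0.26 to 0.35, adjusted p 0.018 to 0.0485) and without HEK001 hairpin replicate 3 (adjusted p = 0.0465). CDK1 itself fell by 0.71 in HEK001 (SE 0.128, adjusted p = 0.00253) and differed by 0.04 in HEK293, where the arrays overlap.

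All 4 mitotic kinases fell in HEK001 and none was called in HEK293. NEK2, which separates centrosomes, read 8.65, 8.75 and 8.64 on HEK001 control arrays and 8.18, 8.01 and 7.54 with the hairpin, beside 8.50, 8.78 and 9.03 (control) against 9.14, 8.80 and 8.70 (hairpin) in HEK293. The HEK001 hairpin arrays differ among themselves, with replicate 3 lowest, and all lie below the controls, while the HEK293 groups overlap. NEK2 fell by 0.77 (SE 0.174, adjusted p = 0.0099). TTK, a kinase of the spindle checkpoint, read 8.78, 8.78 and 8.46 (control) against 8.04, 8.12 and 7.78 (hairpin) in HEK001, and 9.08, 9.03 and 9.34 (control) against 9.30, 9.27 and 8.97 (hairpin) in HEK293. It too separates in HEK001 and overlaps in HEK293, and its fall was 0.70 (SE 0.137, adjusted p = 0.00451). PLK1, the Polo-like kinase needed for mitotic entry and spindle assembly, fell by 0.63 in HEK001 and AURKA, the centrosomal Aurora kinase, by 0.45. Their HEK293 differences were 0.02 and 0.08.

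The chromosomal passenger complex places Aurora B at centromeres and later at the central spindle, and its 3 listed genes all fell in HEK001 while 2 of them rose in HEK293. BIRC5, which encodes survivin, read 10.43, 10.34 and 10.32 on the HEK001 control arrays and 9.70, 9.86 and 9.53 with the hairpin. In HEK293 it went the other way, from 9.98, 9.97 and 9.97 to 10.63, 10.58 and 10.59. No array of either comparison overlaps with the opposite group. BIRC5 fell by 0.66 in HEK001 (SE 0.0938, adjusted p = 0.000557) and rose by 0.63 in HEK293 (adjusted p = 0.000388), and its interaction of 1.29 was the largest among the 40 genes.

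CDCA8, the gene of the subunit borealin, read 9.65, 9.64 and 9.64 (control) against 8.86, 9.10 and 9.16 (hairpin) in HEK001, and 9.35, 9.51 and 9.60 (control) against 9.68, 9.95 and 9.86 (hairpin) in HEK293. It separates downward in HEK001 and upward in HEK293, with differences of −0.60 (adjusted p = 0.00267) and 0.35 (adjusted p = 0.0316). The HEK293 call was lost when any 1 of 4 HEK293 arrays was left out (NCSTN hairpin replicate 2 or 3, control replicate 1 or 2), where it lay between 0.28 and 0.36, and in a fit of the compared arrays alone (adjusted p = 0.0644). AURKB, the kinase of the complex, read 9.85, 10.15 and 9.98 (control) against 9.25, 9.32 and 9.35 (hairpin) in HEK001 and 10.82, 10.80 and 10.93 (control) against 10.66, 10.58 and 10.75 (hairpin) in HEK293. Its hairpin arrays are below the controls in both lines, by 0.69 in HEK001 (adjusted p = 0.000562) and with an uncalled −0.19 in HEK293 (adjusted p = 0.177).

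Of 7 kinetochore and checkpoint genes, 6 fell in HEK001 and none was called in HEK293. CENPE, a kinesin that holds chromosomes to spindle microtubules, read 8.93, 8.85 and 8.75 (control) against 7.95, 8.18 and 8.29 (hairpin) in HEK001 and 8.68, 8.61 and 8.68 (control) against 8.53, 8.70 and 8.44 (hairpin) in HEK293. BUB1, a checkpoint kinase, read 8.83, 8.61 and 8.72 (control) against 8.03, 7.97 and 8.14 (hairpin) in HEK001 and 9.18, 9.16 and 9.08 (control) against 9.13, 8.81 and 9.08 (hairpin) in HEK293. For both genes the HEK001 groups are apart and the HEK293 groups overlap. CENPE fell by 0.70 (SE 0.107, adjusted p = 0.000883) and BUB1 by 0.67 (SE 0.104, adjusted p = 0.00104). CENPA, the histone variant that marks centromeres, fell by 0.61, CENPF by 0.58, the microtubule-attachment gene NDC80 by 0.53 and the checkpoint gene MAD2L1 by 0.43. The NDC80 call was lost without HEK001 control replicate 1 (−0.42, adjusted p = 0.0538). In HEK293 these 4 differed by between −0.14 and 0.25.

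All 5 kinesin motors fell in HEK001, and in HEK293 2 of them rose and 1 fell. KIF4A, a chromosome-bound motor that also sets the length of the central spindle, read 7.99, 7.91 and 7.84 on HEK001 control arrays and 6.94, 6.94 and 7.08 with the hairpin, and 8.32, 8.37 and 8.34 (control) against 7.81, 7.96 and 7.87 (hairpin) in HEK293. It is lower on every hairpin array of both lines, by 0.93 in HEK001 (SE 0.0862, adjusted p = 2.55e-05) and by 0.47 in HEK293 (adjusted p = 0.00176). The fall was larger in HEK001 (interaction 0.46, adjusted p = 0.0161).

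KIF23, a motor of the central spindle needed for cytokinesis, went from 9.13, 9.03 and 8.74 to 8.19, 8.18 and 8.21 in HEK001 and from 9.30, 9.17 and 9.18 to 9.62, 9.79 and 9.63 in HEK293. KIF11, which pushes the spindle poles apart, went from 7.83, 7.63 and 7.69 to 6.94, 7.15 and 7.17 in HEK001 and from 8.74, 8.52 and 8.87 to 8.97, 9.26 and 9.20 in HEK293. Both genes separate downward in HEK001 and upward in HEK293. KIF23 fell by 0.77 (adjusted p = 0.000499) and rose by 0.46 (adjusted p = 0.00668), and KIF11 fell by 0.63 (adjusted p = 0.00344) and rose by 0.43 (adjusted p = 0.0173). The rise of KIF11 was not called without HEK293 hairpin replicate 2 or 3 or control replicate 2 (0.34 to 0.41) or with the mean of its probes (0.28), and its second probe was not called in either line (−0.32 and 0.13). The second KIF23 probe, detected on every HEK293 array, was not called in that line (0.19, adjusted p = 0.295 over all probes).

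KIF2C, which removes tubulin from microtubule ends, read 9.35, 9.36 and 9.23 (control) against 8.65, 8.66 and 8.70 (hairpin) in HEK001, with a gap between the groups. In HEK293 it read 9.15, 9.16 and 8.88 (control) against 9.13, 9.21 and 9.32 (hairpin), with overlap. It fell by 0.64 in HEK001 (adjusted p = 0.000952), and the cytokinesis motor KIF20A by 0.65 (adjusted p = 0.000781). Their HEK293 differences of 0.15 and −0.04 were not called.

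**Figure D4:**
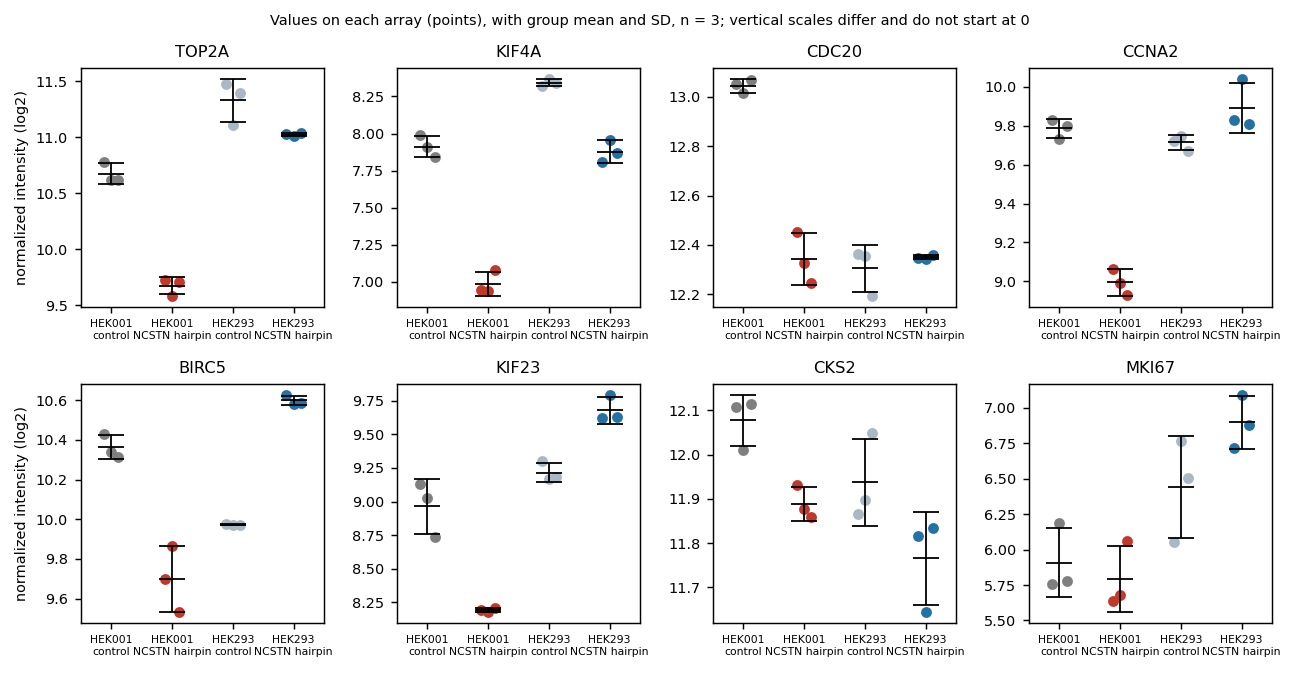
Normalized log2 intensity of 8 genes on each of the 12 arrays (points), with the mean and SD of the 3 arrays of each group. In HEK001 the hairpin arrays are below the controls for TOP2A, KIF4A, CDC20, CCNA2, BIRC5, KIF23 and CKS2, and overlap them for MKI67. In HEK293, BIRC5 and KIF23 are above the controls with the hairpin, and TOP2A, KIF4A and CKS2 are below them.

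Among 6 spindle assembly and microtubule-binding genes, 5 fell in HEK001 and 1 in HEK293. DLGAP5, which stabilizes kinetochore fibres, read 9.54, 9.38 and 9.55 (control) against 8.71, 8.79 and 8.73 (hairpin) in HEK001 and 9.35, 9.04 and 9.28 (control) against 9.34, 9.23 and 9.23 (hairpin) in HEK293. ASPM, a spindle pole protein gene, read 9.27, 9.27 and 9.36 (control) against 8.71, 8.84 and 8.75 (hairpin) in HEK001 and 10.07, 9.99 and 9.96 (control) against 9.96, 9.83 and 9.80 (hairpin) in HEK293. DLGAP5 overlaps between the HEK293 groups, whereas the ASPM arrays are lower with the hairpin in both lines. DLGAP5 fell by 0.74 (SE 0.0993, adjusted p = 0.000384) and ASPM by 0.53 (SE 0.0853, adjusted p = 0.00128) in HEK001, and neither was called in HEK293.

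PRC1, which cross-links antiparallel microtubules at the midzone, read 10.60, 10.84 and 10.59 (control) against 10.09, 10.16 and 10.28 (hairpin) in HEK001 and 11.80, 11.84 and 11.74 (control) against 11.47, 11.48 and 11.47 (hairpin) in HEK293. It was lower on every hairpin array of both lines, by 0.50 (adjusted p = 0.0036) and 0.32 (adjusted p = 0.025). The interaction was not called (0.18, 95% interval −0.11 to 0.47). The HEK293 call of PRC1 was lost when any 1 of 5 HEK293 arrays was left out, all but control replicate 3 (−0.32 to −0.30), and under median scaling or the replicate block (adjusted p 0.0548 to 0.0927). HMMR fell by 0.52 and NUSAP1 by 0.43 in HEK001.

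Of the genes of APC/C-dependent destruction, 3 of 4 fell in HEK001 and none was called in HEK293. CDCA3, which takes part in removal of the CDK1-inhibiting kinase WEE1, read 8.55, 8.51 and 8.64 (control) against 7.86, 7.74 and 7.67 (hairpin) in HEK001 and 8.90, 8.99 and 9.00 (control) against 9.05, 9.25 and 9.26 (hairpin) in HEK293. CDC20, the mitotic activator of APC/C, read 13.05, 13.01 and 13.07 (control) against 12.45, 12.32 and 12.25 (hairpin) in HEK001 and 12.36, 12.36 and 12.19 (control) against 12.35, 12.34 and 12.36 (hairpin) in HEK293. In HEK001 both separate, and in HEK293 CDC20 overlaps and CDCA3 is slightly higher with the hairpin. CDCA3 fell by 0.81 (SE 0.0931, adjusted p = 0.000129), CDC20 by 0.70 (SE 0.0879, adjusted p = 0.000233) and UBE2C, the ubiquitin-conjugating enzyme of APC/C, by 0.53 (adjusted p = 0.00201).

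TOP2A had the largest fall of the 40 genes in HEK001. It read 10.78, 10.62 and 10.62 on the control arrays and 9.72, 9.58 and 9.71 with the hairpin there, and 11.47, 11.11 and 11.40 (control) against 11.02, 11.01 and 11.03 (hairpin) in HEK293. The HEK001 groups lie far apart, and in HEK293 the hairpin arrays lie closely together just below the controls. TOP2A fell by 1.00 in HEK001 (SE 0.104, adjusted p = 6.21e-05), a level 49.9% of that in control cells. In HEK293 it fell by 0.30 (adjusted p = 0.0481), a call that was lost when any 1 array other than HEK293 control replicate 2 was left out (−0.31 to −0.23). It was also lost under 6 other settings, namely the authors' processed values, median scaling, both looser detection filters, the compared arrays alone and the replicate block (−0.30 to −0.24, adjusted p 0.0508 to 0.136). FOXM1, a transcription factor of mitotic genes, read 8.11, 8.16 and 8.27 (control) against 7.51, 7.33 and 7.98 (hairpin) in HEK001 and 8.70, 8.73 and 8.49 (control) against 8.80, 8.99 and 9.02 (hairpin) in HEK293. Hairpin replicate 3 of HEK001 lies close to the controls and the other 2 well below them. FOXM1 fell by 0.57 (SE 0.146, adjusted p = 0.0181), and the call was lost without HEK001 hairpin replicate 1 or 2 or control replicate 3 (−0.53 to −0.44).

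The 8 genes not called in HEK001 were not alike. CKS1B and CKS2, small CDK-binding proteins, PTTG1, which encodes securin, and CDC25B had bright probes and small differences, at −0.22 (95% interval −0.43 to −0.02), −0.19 (−0.38 to 0.01), −0.13 (−0.30 to 0.05) and −0.14 (−0.38 to 0.10). The median of −0.61 lies outside all 4 intervals. CCNB1, the other B-type cyclin gene listed, and TPX2, an activator of Aurora A, differed by −0.39 (−0.73 to −0.04) and −0.38 (−0.69 to −0.07), intervals that hold the median. TPX2 read 10.28, 10.10 and 10.09 on the control arrays and 9.60, 9.62 and 10.11 with the hairpin, so that replicate 3 alone reaches the controls. Without that array TPX2 was lower by 0.55 and was called (adjusted p = 0.0143), as was its interaction (0.67, adjusted p = 0.0134). CKS1B was called then too (−0.31, adjusted p = 0.0452). With all arrays, TPX2 was called under median scaling, an offset of 50, or trended and robust moderation (adjusted p 0.0233 to 0.0418), as was its interaction (0.0268 to 0.045). CKS1B was called with the mean of its probes or trended and robust moderation (0.0375 to 0.0458), and CCNB1 under the latter (0.0392).

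MKI67, the gene of the proliferation antigen Ki-67, was not called in HEK001, where its probe was dim. It read 5.76, 6.19 and 5.78 on the control arrays and 5.64, 5.68 and 6.06 with the hairpin, against a lowest detected value per array of 5.26 to 5.50. In HEK293 it read 6.06, 6.77 and 6.51 (control) against 6.72, 7.09 and 6.88 (hairpin). The groups overlap in both lines. The difference was −0.11 in HEK001 (95% interval −0.52 to 0.29) and 0.45 in HEK293 (0.05 to 0.85, adjusted p = 0.0912), and without HEK293 control replicate 2 it was called there (0.62, adjusted p = 0.0344), as it was with an offset of 50 (0.34, adjusted p = 0.0471). BUB1B, a checkpoint gene, was likewise dim in HEK001, where it was detected on 2 of 3 control arrays. Its fitted difference of 0.18, which takes in a control array without detection, was the only one above 0 in HEK001 (95% interval −0.27 to 0.63).

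In control cells the 40 genes were not uniformly higher in either line. There 17 of the 40 genes were higher in HEK293 and 13 lower, where 39.4% of all genes were called higher and 33.2% lower (72.7% in either direction). All 3 HEK293 control arrays lay above all 3 of HEK001 for 17 genes and below them for 15, beside 40.4% and 34.4% of all genes. The median difference was 0.12, which turned to −0.054 with median scaling in place of quantile normalization. UBE2C was lower in HEK293 control cells by 1.74 (SE 0.0906), CDC25B by 1.25, NDC80 by 1.10 and TPX2 by 1.00. CENPF was higher there by 1.29 (SE 0.109), PRC1 by 1.11 and KIF11 by 0.99, and BUB1B was at least 2.63-fold higher. CCNB1, CCNB2, NEK2 and KIF20A were not called between the control lines, with arrays that overlap.

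Other probes of the same genes gave the same sign in HEK001. Of the 40 genes, 22 had 1 probe and 18 had several, which adds 19 probes. All 19 were below 0 in HEK001, and none was called in the opposite direction in either line. In HEK001, 12 had the same call as the probe that stands for the gene. These 12 include probes of CKS1B, CKS2 and PTTG1, genes with no called probe there. Other probes of CDK1, BIRC5, MAD2L1, KIF11, KIF23 and NUSAP1, and 1 of CDC25C, were not called in HEK001, although the probe that stands for the gene was. That KIF23 probe was detected on 1 of 3 HEK001 control arrays and on no HEK001 hairpin array. The second BIRC5 probe was higher by 0.85 in HEK293 (adjusted p = 0.00175 over all probes) and was not called in HEK001 (−0.38, adjusted p = 0.118). A second UBE2C probe, detected on 1 of 3 HEK001 hairpin arrays and on all 3 controls, was called lower there. The second CKS1B probe was called lower in HEK293 (−0.37, adjusted p = 0.0318 over all probes) and not in HEK001 (−0.32). In HEK293, 16 of the 19 had the same call and 16 the same sign as the probe that stands for the gene. The sign differed there for probes of NUSAP1 and UBE2C and for 1 of CDC25C, none of them called. For the interaction, 12 of the 19 had the same call and 16 the same sign as the probe that stands for the gene. It was not called on other probes of CDK1, CDC25C, CENPE, KIF11, KIF23 and NUSAP1 (adjusted p 0.0557 to 0.168 over all probes). Neither CENPA probe was called over all probes (adjusted p = 0.0541 and 0.062).

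Other genes of the same phase and of S phase were also lower in HEK001, with medians nearer to 0 than that of the 40. Of 87 measured genes from a list of other G2/M genes, 44 fell in HEK001 and none rose (50.6% lower, beside 7.89% of all genes), with a median of −0.38. CENPL fell by 0.89 (SE 0.103, adjusted p = 0.000129) and DEPDC1 by 0.88, and CENPU, detected on 1 of 3 hairpin arrays, was at least 1.66-fold lower. In HEK293, 13 of the 87 rose and 5 fell, with a median of 0.07. These shares (14.9% and 5.75%) are close to the 12.4% of all genes called higher and below the 13.5% called lower. The kinetochore gene SPC24 rose there by 0.77, TUBB4B by 0.66 and CDCA4 by 0.59, while HMGB3 fell by 0.86, ARPP19 by 0.69 and the checkpoint gene BUB3 by 0.54. Of 38 measured DNA replication genes, 25 fell in HEK001 and none rose (65.8% lower), with a median of −0.41. The 25 include CDC6, detected on 1 of 3 HEK001 control arrays and on no hairpin array, so no size is given for it. TYMS fell by 0.86, UNG by 0.73 and GINS4 by 0.71. In HEK293, 5 of the 38 rose and 1 fell, with a median of 0.03, and the shares (13.2% and 2.63%) are again close to and below those of all genes. RRM2 rose by 1.21, GINS4 by 0.48 and GINS3 by 0.41 while POLA1 fell by 0.63. The interaction was called for 38 of the 87 genes in the direction of the 40 and for 1 in the other, and for 19 of the 38 replication genes and none the other way. These are 43.7% and 1.15% of the 87 and 50% and 0% of the 38, beside 11.7% and 12.8% of all genes.

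**Figure D5:**
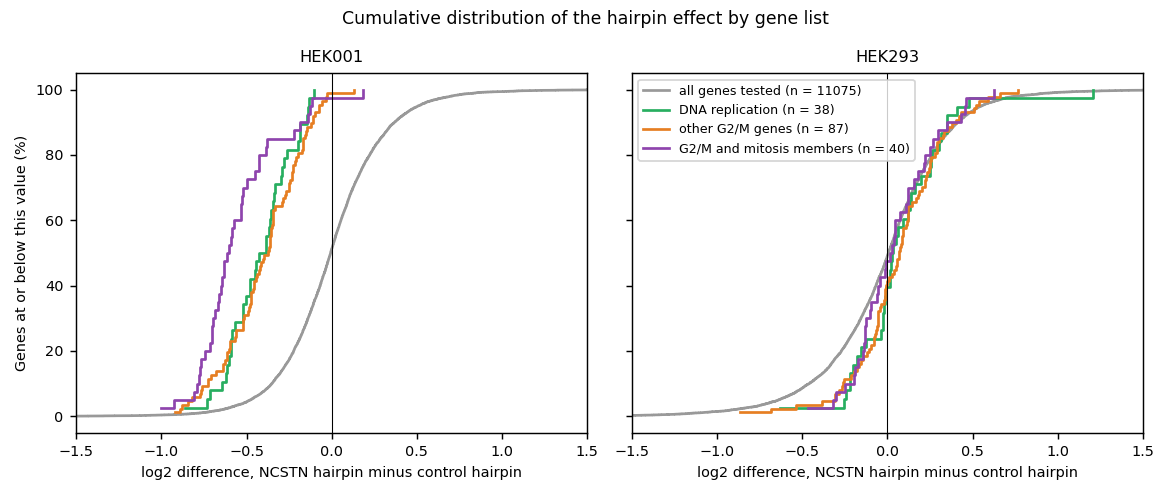
Share of genes (vertical axis, percent) with a log2 hairpin difference at or below the value on the horizontal axis, in HEK001 (left) and HEK293 (right), for all 11075 genes tested (grey), 38 DNA replication genes (green), 87 other G2/M genes (orange) and the 40 genes described here (purple). Values beyond 1.5 in either direction are not drawn. In HEK001 the medians are −0.61 for the purple curve, −0.41 for the green, −0.38 for the orange and −0.0064 for the grey. In HEK293 the 4 medians lie between 0.0065 and 0.07.

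Of 20 measured genes of the DREAM and MuvB complexes, E2F and NF-Y factors, 3 fell in HEK001 and 1 rose (15% and 5%, beside 7.89% and 8.35% of all genes). E2F2 fell by 0.70 (SE 0.116, adjusted p = 0.00163) and E2F7, a repressor of the E2F family, by 0.33, and the MuvB subunit gene LIN9, detected on 2 of 3 hairpin arrays, was at least 1.45-fold lower. E2F1, detected on 1 of 3 control arrays, was at least 1.42-fold higher. In HEK293, 5 rose and 2 fell (25% and 10%, beside 12.4% and 13.5%). E2F7 rose by 0.66 and the retinoblastoma gene RB1 by 0.53, and its relative RBL1, detected on 2 of 3 control arrays, was at least 1.38-fold higher. RBBP4 fell by 0.59 and RBL2 by 0.44.

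Cell cycle inhibitors did not fall as a group in either line. Of 14 measured, 1 rose and 2 fell in HEK001 (7.14% and 14.3%, beside 8.35% and 7.89% of all genes), and 6 rose and none fell in HEK293 (42.9% higher, beside 12.4%). CDKN1A, the gene of the CDK inhibitor p21, differed by 0.10 in HEK001 (adjusted p = 0.499) and rose by 0.84 in HEK293 (SE 0.0933, adjusted p = 3.91e-05), with an interaction of 0.74 (adjusted p = 0.00171). GADD45B fell by 0.64 in HEK001 and rose by 1.83 in HEK293, GADD45A fell by 0.47 in HEK001 and rose by 0.48 in HEK293 (adjusted p = 0.00896, interaction 0.95), and GADD45G, detected on 2 of 3 HEK293 control arrays, was at least 4.16-fold higher in that line. SFN, which encodes an epithelial 14-3-3 protein, rose by 0.52 in HEK001 and was detected on no HEK293 array. Of 11 genes of G1 cyclins and kinases, 3 fell in each line (27.3%, beside 7.89% of all genes in HEK001 and 13.5% in HEK293) and none rose. SKP2, a ubiquitin ligase subunit, fell by 0.52 in HEK001 and 0.27 in HEK293, CDC25A by 0.45 and CCNE1 by 0.35 in HEK001, and CCNH by 0.60 and CCND1 by 0.38 in HEK293.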

How the data were processed

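RNA of 12 samples was hybridised to Illumina BeadChips. The deposited table holds probe intensities, not normalized between arrays, with detection p-values, per the file headers. The authors' processed table holds log2 values of 21270 probes, namely all whose detection p-value was below 0.05 on 4 arrays or more. It was used as an alternative only. GenomeStudio 2010 and R 3.0.2 are named, per the submitters' processing notes. Other columns of the deposited table (bead numbers and bead errors) were not used.

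Background was corrected by normexp using the detection p-values, an offset of 16 was added, and arrays were quantile-normalized and put on the log2 scale (neqc in limma 3.58.1, R 4.3.3). A probe was kept if 3 or more arrays detected it at p below 0.01 (18152 of 47318), of which 14411 have 1 gene in the GEO platform annotation. The brightest probe stood for each gene. A model of 4 group means was fitted to all 11075 genes with lmFit and eBayes, and p-values were adjusted by Benjamini-Hochberg over all genes within each comparison. Intervals are 95% intervals of the fit. All adjusted p-values are from limma. With 3 arrays against 3, no test could give an exact permutation p below 0.1, and none is printed. A called gene detected on fewer than 3 arrays of the dimmer group has only a bound, taken against the lowest detected signal of each array. The fit was tested on simulated data.

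The members, gene lists and rules were chosen with earlier results of these data known. Values on every array are given for the 2 members per role with the largest called HEK001 difference, for every member called in HEK293 and for the 12 with the largest interaction, with TPX2 and MKI67 added after their values were seen. Of the other lists, the 3 largest called rises and falls per line are named. Alternatives covered background correction, scaling, offset, detection filter, probe choice, moderation, arrays in the fit, a replicate block and each array left out.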

Additional observations from a re-analysis of the deposited data

Results flagged for a closer look

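The hairpin effect differed between the lines for 29 of the 40 genes, by limma's interaction term over all 11075 genes. Not every other probe of these genes was called, as given above. Each value is the log2 effect in HEK293 minus that in HEK001, from 3 arrays in each of 4 groups. Among cyclins, CDK1 and its activators it was 0.97 for CCNA2, 0.86 for CCNB2, 0.75 for CDK1 and 0.99 for CDC25C. Among the kinases it was 0.52 for AURKA, 0.65 for PLK1, 0.88 for NEK2 and 0.73 for TTK. The passenger complex genes stood at 0.50 for AURKB, 1.29 for BIRC5 and 0.95 for CDCA8. Kinetochore and checkpoint genes stood at 0.54 for BUB1, 0.79 for NDC80, 0.49 for CENPA, 0.60 for CENPE and 0.57 for CENPF. The kinesins ranged from 0.46 for KIF4A through 0.61 for KIF20A, 0.80 for KIF2C and 1.06 for KIF11 to 1.24 for KIF23. Spindle genes stood at 0.42 for NUSAP1, 0.39 for ASPM and 0.79 for DLGAP5. The ubiquitination genes stood at 0.75 for CDC20, 0.64 for UBE2C and 1.02 for CDCA3, and TOP2A and FOXM1 at 0.70 and 0.87.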

How the results depend on the processing

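The direction of the shift did not turn in any alternative run for HEK001 or for the interaction. Outcomes were compared over 919 pairs of a gene and a setting, where a gene called in neither run counts as the same. In HEK001, 907 of 919 outcomes were the same, with 4 calls lost and 8 gained, beside 877 of 919 in HEK293 (33 lost, 9 gained). For the interaction it was 848 of 879 (27 lost, 4 gained), and between the control lines 880 of 919 (31 lost, 8 gained). The 33 losses in HEK293 all fell on CDCA8, KIF11, PRC1 and TOP2A, where only 4 genes had been called higher and 3 lower. The HEK001 median of −0.607 became −0.561 without background correction, −0.662 with median scaling and −0.548 with an offset of 50. The interaction median of 0.605 became 0.549, 0.691 and 0.532 under the same settings. With median scaling the HEK293 median became 0.068, the control-line median −0.054, and the genes called lower in HEK293 went from 3 to 1. The replicate block also left 1 gene called lower in HEK293, and it ended the interaction calls of ASPM, CENPA and NUSAP1 and the HEK293 calls of PRC1 and TOP2A. Same-numbered arrays deviated together at r between −0.047 and 0.072 over all genes and between −0.148 and 0.168 over the 40. The labels do not say whether the numbers pair the samples, and so few arrays cannot settle it. Leaving out 1 array at a time gave 31 to 34 of the 40 genes lower in HEK001 and 0 to 0 higher, with medians of −0.628 to −0.581. In HEK293 it gave 2 to 5 higher and 1 to 2 lower, with medians of −0.039 to 0.04. For the interaction it gave 26 to 28 higher and 0 to 0 lower (median 0.586 to 0.672), and between the control lines 15 to 17 higher and 11 to 13 lower (0.091 to 0.143). Over all genes, 1147 to 1859 were called in HEK001 (1799 with all arrays, lowest without HEK001 control replicate 3, where 4.97% were lower), 2260 to 2990 in HEK293, 2254 to 2548 for the interaction and 7624 to 8121 between the control lines. The causes were not tested. With no detection filter the genes tested were the same 12155 as at a detection p-value under 0.05 on 4 arrays, since the annotation names no other probes. A slide block was not run because the columns give no BeadChip, and a fit of 1 line alone gives no interaction. Dim probes (MKI67 and BUB1B in HEK001) limit what can be seen.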
